A study of Homo sapiens with 18 samples.

Results

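Silencing of IKKα in WiDr cells was examined on 3 arrays of cells transduced with an shRNA against IKKα and 3 arrays of cells transduced with a control shRNA, which are 6 of the 18 arrays of the series. The arrays were chosen by their titles, and no measured value entered the choice. Titles and condition tags name the IKKα shRNA group plainly, but its description also holds the word control, a conflict within the labels. WiDr is an established human colorectal cancer line, close kin of HT29, that carries an activating BRAF mutation. The labels name no inhibitor for either shRNA group, and they give no hairpin sequence, number of hairpins, selection scheme or time after transduction, so the comparison rests on 1 labelled knockdown, in which clones, pools and hairpin-specific effects cannot be told apart. The labels do not say that replicates came from separate cultures, and p-values therefore measure only how far these arrays vary, possibly for technical reasons. Another 3 WiDr arrays of vehicle-treated cells without a hairpin are set beside the results. The other 9 arrays, WiDr with the RAF inhibitor AZ628 and HT29 with AZ628 or vehicle, entered only the estimate of the spread.

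Each value is a normalised log2 signal, so a step of 1 is a 2-fold change, and 18132 genes were compared, each by 1 probe set. A gene passed when its limma adjusted p (Benjamini-Hochberg over all genes) was under 0.05. Signals of different probe sets are not compared with each other, and low signals understate a fold change, because they approach the background of the array. Because whole cultures were profiled, fewer cells of a type and less RNA per cell cannot be told apart.

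IKKα is the kinase encoded by CHUK. With IKKβ and the regulatory subunit NEMO it forms the IκB kinase complex, which releases NF-κB dimers from their inhibitors, and on its own, activated by the kinase NIK, it drives processing of the NFKB2 precursor in the noncanonical branch. In mouse skin IKKα is also required for the terminal differentiation of keratinocytes, a role that does not need its kinase activity. In the colon epithelium NF-κB is best known for inducing chemokines, adhesion molecules and survival genes.

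CHUK, on chromosome 10, read 7.68, 7.23 and 7.65 on the IKKα shRNA arrays, against 9.68, 9.45 and 9.78 on the control shRNA arrays and 9.67, 9.29 and 9.50 on the vehicle arrays. All 3 IKKα shRNA arrays lay below all 6 others, as their titles call for. The log2 difference from control shRNA was -2.12 (SE 0.12, adjusted p = 4.11e-10), a 4.33-fold lower signal, and only 1 probe set measured the gene.

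The rest of the pathway moved little. Of 21 measured IKK and NF-κB pathway genes, 2 rose and 5 fell, CHUK included, where 15.9% of all genes rose and 19% fell, so the shares are near those of the array as a whole. With the arrays centred on their medians 5 rose, and against vehicle 8 rose and 4 fell (16.4% and 19.8% of all genes). The genes that passed, named here after their values were seen except CHUK, MAP3K14 and CYLD, changed by less than 2-fold apart from CHUK. MAP3K14, which encodes NIK, rose by 0.56 (SE 0.07, adjusted p = 6.69e-06), and IKBKG, which encodes NEMO, rose by 0.48. The 2 probe sets of MAP3K14 gave -0.17 and 0.56, and the 8 of IKBKG ranged from -0.04 to 0.48. NFKB1 fell by 0.50, NFKBIA, the inhibitor IκBα, fell by 0.40, and TRAF3, which holds NIK at a low level, fell by 0.37, but did not pass against vehicle (-0.14, adjusted p = 0.135). CYLD, a deubiquitinase that restrains the pathway, had a difference of -0.53. Without the third IKKα shRNA array its difference was -0.39 and did not pass (adjusted p = 0.0544). Its 4 probe sets ranged from -0.92 to 0.05. The probe set brightest over the 6 shRNA arrays gave -0.15 and did not pass (adjusted p = 0.249). IKBKB, the IKKβ gene, read 7.98, 7.94 and 8.21 with IKKα shRNA and 7.88, 7.87 and 7.63 with control shRNA, and did not pass (adjusted p = 0.0763), although it passed with the arrays centred on their medians (adjusted p = 0.0443).

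Genes known as NF-κB targets moved in both directions. Of 22 measured, 8 rose (36.4%) and 4 fell (18.2%), where 15.9% and 19% of all genes did. Their median log2 difference was 0.08, against 0.02 over all genes. Against vehicle 5 rose and 6 fell (16.4% and 19.8% of all genes). CXCL8, a chemokine that attracts neutrophils, read 10.55, 10.62 and 10.87 with IKKα shRNA, against 8.12, 8.24 and 8.48 with control shRNA and 9.51, 9.69 and 9.69 with vehicle. It was highest on the IKKα shRNA arrays and lowest on the control shRNA arrays, and its log2 difference from control shRNA was 2.40 (SE 0.13, adjusted p = 2.03e-10), against 1.05 from vehicle. PTGS2, which encodes the prostaglandin synthase COX2, rose by 2.37 (SE 0.13, adjusted p = 1.3e-10) and by 3.03 over vehicle. CXCL6 rose by 1.28 and CXCL3 by 1.11. TNFAIP2 (-0.84) and CCL20 (-0.64), picked after their values were seen, were among the 4 that fell. For TNFAIP2 the mean over its 5 probe sets gave only -0.07 and did not pass (adjusted p = 0.501).

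A κB site, the DNA sequence that NF-κB dimers bind, was searched as GGG, any 2 bases and TTTCC on both strands of RefSeq promoters (GRCh38.p14), each 300 bases long with 250 before the gene start and 50 after it. It was present in 7 of 19 promoters of the target list, or 36.8%, against 1.98% of all 14425 promoters matched. Among genes that changed 2-fold or more it was near the share of all promoters, at 2.19% of those that rose and 2.19% of those that fell. CXCL3, which rose, and CCL20, which fell, are shown because each holds 1 match at the same distance, 79 bases before the start (position -79), with capitals for the match. The first lies at chr4:74038640-74038939 on the minus strand, the second at chr2:227813592-227813891 on the plus strand.
CXCL3: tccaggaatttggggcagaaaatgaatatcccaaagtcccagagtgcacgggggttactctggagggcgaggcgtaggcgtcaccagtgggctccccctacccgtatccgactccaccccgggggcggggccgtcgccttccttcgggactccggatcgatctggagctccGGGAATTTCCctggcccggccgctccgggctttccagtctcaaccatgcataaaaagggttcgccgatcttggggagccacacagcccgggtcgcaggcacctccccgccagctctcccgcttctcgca
CCL20: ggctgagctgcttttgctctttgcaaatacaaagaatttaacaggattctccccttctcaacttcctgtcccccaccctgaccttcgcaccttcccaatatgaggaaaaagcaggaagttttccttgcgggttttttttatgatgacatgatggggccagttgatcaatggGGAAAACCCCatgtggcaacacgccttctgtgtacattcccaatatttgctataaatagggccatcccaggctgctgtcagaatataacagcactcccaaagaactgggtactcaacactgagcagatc

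Across all genes the IKKα shRNA arrays stood apart from both WiDr references. On the first principal component of the 9 WiDr arrays, which held 65.3% of the variance, they scored 33.9 to 36.9, against -20.9 to -20.1 for control shRNA and -15.8 to -13.6 for vehicle. The second component, with 17.9%, separated the control shRNA arrays (13.04 to 16.7) from the vehicle arrays (-21.6 to -10.9). The control hairpin group thus differed from vehicle as well: 2099 genes were higher (11.6%) and 1924 lower (10.6%) with control shRNA than with vehicle. For that reason vehicle values are given below for part of the genes. A gene printed without them is compared with control shRNA alone.

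Against control shRNA, 6323 genes passed with IKKα shRNA (34.9%), of which 2880 rose (15.9% of all) and 3443 fell (19%). Against vehicle 16.4% of all genes rose and 19.8% fell. Counts of list members given below are to be read beside these shares. Most changes were small: 89.2% of the genes that passed changed by less than 2-fold, while 276 rose (1.52%) and 408 fell (2.25%) by 2-fold or more. By 8-fold or more, 14 genes were higher and 7 lower. All 276 of the genes up 2-fold or more had every IKKα shRNA array above all 6 control shRNA and vehicle arrays, and 385 of the 408 down had every array below them (2.12% of all genes). Their separation from control shRNA was largely set by how they were chosen, so only that from vehicle adds to it. Over all genes, 14.3% lay above all 6 arrays and 16.3% below them. Calls were fewer among dim genes, with 6.64% higher and 2.21% lower in the 4533 dimmest genes by mean signal, against 21.3% and 31.8% in the 4533 brightest.

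**Figure D1:**
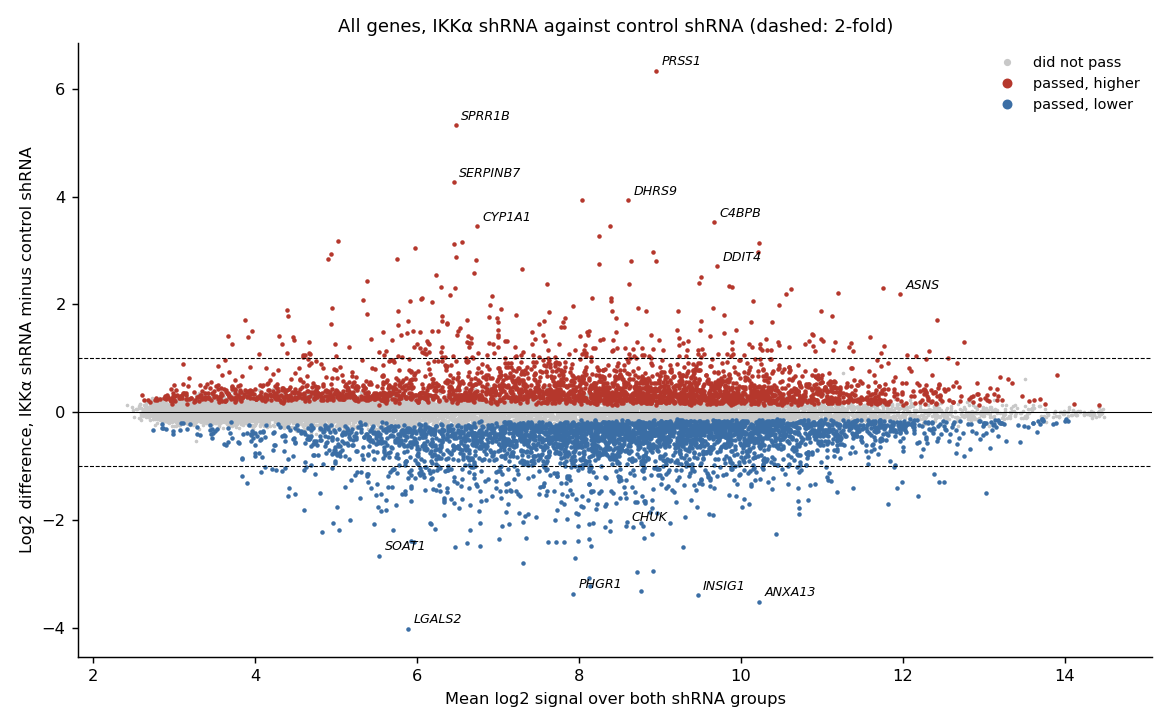
Log2 difference of IKKα shRNA minus control shRNA (vertical axis) against the mean log2 signal over both shRNA groups (horizontal axis) for all 18132 genes. Red points passed as higher and blue points as lower with IKKα shRNA, gray points did not pass, and the dashed lines mark 2-fold. PRSS1 lies at the top with a log2 difference of 6.34 and LGALS2 at the bottom with -4.02.

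The 20 largest rises spanned several families, with 3 of them, SPRR1B, SCEL and CSTA, on the list of cornified envelope and squamous genes. SPRR1B, a precursor of the cornified envelope of squamous cells, read 9.03, 9.08 and 9.31 with IKKα shRNA, against 3.72, 3.89 and 3.84 with control shRNA and 4.32, 4.21 and 4.46 with vehicle. Both reference groups lay in the range of the 4533 dimmest genes (under 4.72), while the knockdown arrays did not. The log2 difference from control shRNA was 5.32 (SE 0.14, adjusted p = 1.04e-14), which low reference signals may understate. SERPINB7, a clade B serine protease inhibitor of the epidermis, read 8.59, 8.50 and 8.68 with IKKα shRNA, against 4.03, 4.44 and 4.50 with control shRNA, and its difference was 4.27 (SE 0.12, adjusted p = 3.13e-14).

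Of 24 measured cornified envelope and squamous genes, 9 rose (37.5%) and 1 fell (4.17%), with 14 that did not pass and a median of 0.15. The rise was thus carried by some members of the list. With the 4533 dimmest genes left out, only 14 of the list could be tested, of which 5 rose and 2 fell. Sciellin (SCEL), a cornified envelope component, rose by 3.46, cystatin A (CSTA), a cysteine protease inhibitor of squamous cells, by 2.95 and PADI1, which citrullinates epidermal proteins and is not on the list, by 2.83. SPRR1A rose by 1.77 and SPRR3 by 1.62, and 4 of 10 SPRR genes rose with none that fell in limma, and 0 at an unadjusted p under 0.05. A second probe set of SPRR1A gave 4.30. S100A2, a calcium-binding protein of basal squamous cells, rose by 1.54. Clade B serpins as a group did not share a direction: 2 of 11 rose and 2 fell (18.2% each, near the shares of all genes). SERPINB9, which inhibits granzyme B, fell by 2.48. Its 4 probe sets ranged from -2.48 to 0.09.

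Keratins are the intermediate filament proteins of epithelia. Among 9 keratins of stratified epithelium 4 rose (44.4%, against 15.9% of all genes) and none fell (19% of all genes). The other 5 did not pass in the limma fit, and at an unadjusted p under 0.05 the count of falls was also 0. Against vehicle 4 rose and 2 fell. KRT13 rose by 1.74 (SE 0.10, adjusted p = 5.25e-10), KRT15 by 1.68 and KRT80 by 1.35. KRT13 read 7.90, 7.96 and 7.71 with IKKα shRNA, against 6.22, 6.12 and 6.01 with control shRNA. Among 6 keratins of simple epithelium 1 rose, KRT7 (0.76), and 1 fell, KRT20, while against vehicle 3 rose and 0 fell. Whether the keratin groups differ was not tested. KRT18 read 14.36, 14.37 and 14.30 with IKKα shRNA, against 14.36, 14.38 and 14.35 with control shRNA, and did not pass (adjusted p = 0.796). KRT20, a keratin of differentiated intestinal cells, fell by 0.34 below control shRNA, with a difference of -0.12 from vehicle that did not pass (adjusted p = 0.218).

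PRSS1, which encodes cationic trypsinogen, showed the largest change of any gene named by the rule. It read 12.01, 12.18 and 12.19 with IKKα shRNA, against 5.70, 5.79 and 5.87 with control shRNA and 5.74, 6.12 and 6.06 with vehicle. The groups did not overlap, which the rule required for control shRNA. The log2 difference was 6.34 (SE 0.11, adjusted p = 9.43e-17), an 81.0-fold higher signal. Trypsinogen genes are near-identical copies, so the share of PRSS1 itself in this signal is uncertain, and its 3 probe sets ranged from 0.32 to 6.34. Among 21 kallikreins, trypsinogens and related proteases and inhibitors 10 rose and 8 fell. PRSS8, the membrane protease prostasin, rose by 1.17, whereas KLK11, a secreted kallikrein, fell by 2.13.

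Further genes among the 20 largest rises belong to varied families. C4BPB, a chain of the complement inhibitor C4b-binding protein, rose by 3.53, and C4BPA, the other chain, noted after its value was seen, by 2.08. FILIP1L, a filamin-interacting protein, rose by 3.94, although its 7 probe sets ranged from -0.06 to 3.95. ULBP1, a ligand of the NKG2D receptor of natural killer cells, rose by 3.05 over control shRNA and by 2.53 over vehicle. MAP2, a microtubule protein best known from neurons, rose by 2.85, and SERPINI1, the serpin neuroserpin, by 3.16. JAKMIP2 (3.19), LYPD6B (3.12) and CLIP4 (2.98) also rose.

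Some carcinoembryonic antigens, adhesion proteins of the colon epithelial surface, rose. CEACAM5 read 9.79, 9.90 and 9.96 with IKKα shRNA, against 6.50, 6.66 and 6.66 with control shRNA and 6.22, 6.05 and 6.04 with vehicle. The log2 difference was 3.28 (SE 0.08, adjusted p = 1.12e-14). CEACAM6 rose by 2.98 over control shRNA and by 4.28 over vehicle, and CEACAM7 by 1.05. In all, 4 of 12 CEACAM genes rose and none fell in limma, with 0 also at an unadjusted p under 0.05. These genes are close relatives in sequence, so their probe sets may share targets.

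**Figure D2:**
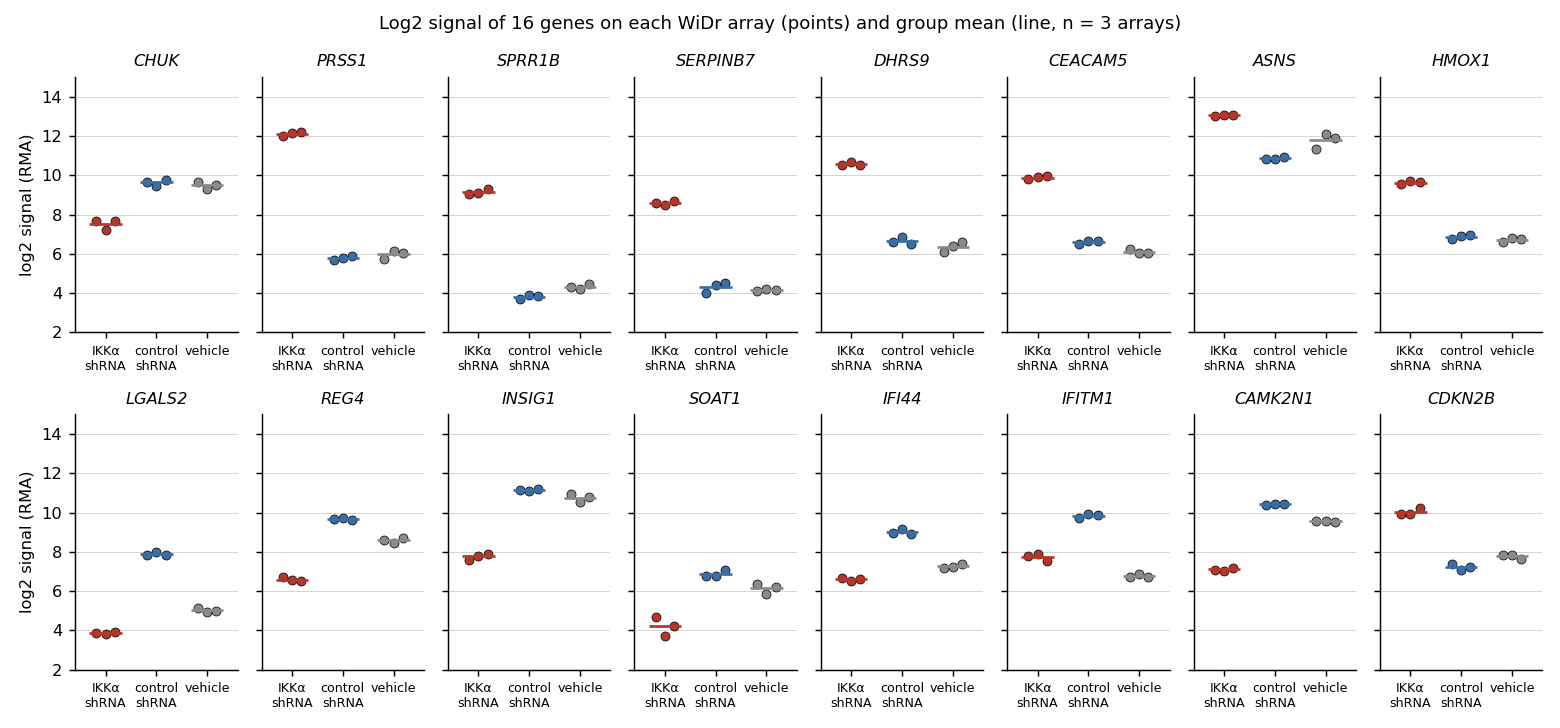
Log2 signal (vertical axis) of 16 genes on each WiDr array, with points for the arrays and a line for the mean of 3 arrays, for IKKα shRNA (red), control shRNA (blue) and vehicle (gray). PRSS1, SPRR1B and SERPINB7 lie higher and CHUK, REG4 and INSIG1 lower on the IKKα shRNA arrays than on both reference groups, while IFITM1 lies between them.

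Some enzymes that make retinoic acid from vitamin A rose, whereas the whole retinoid list did not lean one way. DHRS9, a retinol dehydrogenase, read 10.53, 10.69 and 10.52 with IKKα shRNA, against 6.60, 6.85 and 6.48 with control shRNA and 6.10, 6.38 and 6.60 with vehicle, a difference of 3.93 (SE 0.11, adjusted p = 2.88e-14). ALDH1A3, which oxidises retinal to retinoic acid, rose by 3.14, and RDH10, which oxidises retinol, by 1.46. Of 20 retinoid genes 6 rose (30%) and 5 fell (25%), against 15.9% and 19% of all genes, with a median of -0.02. Against vehicle 7 rose and 3 fell. Among 18 aldehyde dehydrogenases ALDH1A3 was the 1 that rose, while 10 fell.

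Genes induced through the aryl hydrocarbon receptor, a sensor of planar aromatic compounds, were split. CYP1A1, a cytochrome P450 and its classical target, read 8.22, 8.60 and 8.58 with IKKα shRNA, against 5.08, 4.78 and 5.20 with control shRNA, a difference of 3.45 (SE 0.15, adjusted p = 8.34e-12). CYP1B1 rose by 1.80 and TIPARP, a feedback inhibitor of the receptor, by 0.79. NQO1, a target shared with NRF2, had a difference of -0.02 and did not pass (adjusted p = 0.814). Of the 9 genes of the list 4 rose (44.4%) and 2 fell (22.2%), against 15.9% and 19% of all genes. The xenobiotic response element, searched as TNGCGTG on both strands of the RefSeq promoters, was present in 2 of 7 promoters of the list (28.6%), those of AHRR and NQO1, against 6.52% of all. Among genes changed 2-fold or more, 4.82% of those that rose and 4.69% of those that fell held it. AHRR, a repressor of the receptor, did not pass either (-0.05, adjusted p = 0.738).

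Oxidative defence genes, most of them targets of NRF2, rose more often than they fell. Of 21, 11 rose (52.4%) and 2 fell (9.52%), where 15.9% and 19% of all genes did. Against vehicle 11 rose and 4 fell (16.4% and 19.8% of all genes). HMOX1, which degrades heme, read 9.56, 9.70 and 9.63 with IKKα shRNA, against 6.74, 6.90 and 6.98 with control shRNA and 6.59, 6.81 and 6.78 with vehicle. The difference was 2.76 (SE 0.08, adjusted p = 4.32e-14). The aldo-keto reductases AKR1C2 (2.22) and AKR1C1 (2.19) rose by nearly the same amount, and they are near-identical genes whose probe sets may share signal.

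Matrix, integrin and invasion genes rose in 14 of 21 cases and fell in 1, with a median of 0.32 over control shRNA and 0.35 over vehicle. PLAU, the urokinase protease, read 8.13, 8.02 and 7.82 with IKKα shRNA, against 5.28, 5.51 and 5.44 with control shRNA, a difference of 2.58 (SE 0.11, adjusted p = 4.05e-12). Its 3 probe sets ranged from 0.18 to 2.58. ITGA2, a collagen-binding integrin chain, rose by 1.28 and LAMB3, a laminin chain of the epithelial basement membrane, by 1.24. TGFBI, a matrix protein induced by TGF-β, rose by 1.87, and ID2, an inhibitor of helix-loop-helix factors, fell by 2.33.

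Among 9 fibroblast markers LUM and COL3A1 rose, and the summed linear signal of the list was 250.2 to 270.1 on the IKKα shRNA arrays, against 173.3 to 180.9 on the control shRNA arrays. LUM, a matrix proteoglycan, read 6.12, 6.33 and 6.51 with IKKα shRNA, against 3.71, 3.28 and 3.46 with control shRNA. The collagen chain COL1A1 (0.03) and the surface protein THY1 (0.05), both defining markers named after their values were seen, did not pass. The summed signal of 6 endothelial markers was 275.9 to 310.3 with IKKα shRNA, against 232.4 to 241.5 with control shRNA, and the receptor TEK (1.20), singled out after its value was seen, was the 1 that rose, with 3 probe sets between -0.08 and 1.20. That of 12 colon epithelial markers was 6.514e+04 to 6.716e+04 with IKKα shRNA, against 7.233e+04 to 7.461e+04 with control shRNA. For 8 blood cell markers the ranges overlapped, at 1.197e+04 to 1.509e+04 with IKKα shRNA and 1.379e+04 to 1.524e+04 with control shRNA. The brightest of the 8 averaged a log2 signal of 13.63 with IKKα shRNA, against a median of 5.99, and so largely sets this sum. Of the 8 only CD14 passed, lower by 2-fold or more. Whether other cells had a part in these values was not tested. Of the 12 colon epithelial markers none rose and 5 fell in limma, and 1 was higher at an unadjusted p under 0.05. Against vehicle 2 of the 12 rose and 3 fell, and control shRNA itself was higher than vehicle for 5. KRT19 had a difference of 0.11 that did not pass, but it passed with the arrays centred on their medians (0.15, adjusted p = 0.0313). It also passed as higher than vehicle in limma (0.27, adjusted p = 0.000217).

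Signalling genes around the EGF receptor and the ERK kinases changed by member. EREG, an EGF receptor ligand, read 11.88, 11.85 and 12.04 with IKKα shRNA, against 10.08, 10.06 and 10.01 with control shRNA, a difference of 1.87 (SE 0.11, adjusted p = 5.95e-10). NRG4, a ligand of ERBB4, rose by 1.48 and ERRFI1, an intracellular inhibitor of the EGF receptor, by 1.40. Of 14 EGF receptors and ligands 6 rose (42.9%) and 4 fell (28.6%), where 15.9% and 19% of all genes did. Against vehicle 7 rose and 2 fell (16.4% and 19.8% of all genes). Of 18 genes that report ERK activity 8 rose (44.4%) and 2 fell (11.1%). Among them were DUSP5, an ERK phosphatase, which rose by 1.64, and SPRED1, a RAS pathway inhibitor, which fell by 1.12. The cytokines IL18 (1.86) and IL1A (1.83) and the receptor IL1R1 (1.64) rose too.

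Transcription factors of the immediate early class, which respond within minutes to growth factor signals, rose in 3 and fell in 3 of 13 cases. The shares were 23.1% each, against 15.9% and 19% of all genes. Against vehicle 2 rose and 7 fell (16.4% and 19.8% of all genes). FOS, a subunit of the factor AP-1, read 7.82, 7.94 and 8.15 with IKKα shRNA, against 9.68, 9.55 and 9.75 with control shRNA and 11.12, 11.05 and 11.30 with vehicle. The 3 groups did not overlap, and both shRNA groups lay below vehicle. The difference was -1.69 (SE 0.19, adjusted p = 1.55e-06) from control shRNA and -3.19 from vehicle. JUNB, another AP-1 subunit, fell by 0.61, while the stress-induced factor ATF3 rose by 0.74.

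Genes of the developmental signalling pathways changed by member. Of 19 Wnt and stem cell genes 3 rose (15.8%) and 5 fell (26.3%), near the shares of all genes (15.9% and 19%). SP5, a transcription factor induced by Wnt, read 5.70, 5.90 and 5.98 with IKKα shRNA, against 7.12, 7.26 and 7.29 with control shRNA, a difference of -1.36 (SE 0.08, adjusted p = 2.1e-10), and the receptor EPHB3 fell by 0.95. AXIN2, a feedback inhibitor of the same pathway, rose by 0.62, so Wnt-induced genes went opposite ways. MYC (-0.04) and SOX9 (0.06), transcription factors of proliferating crypt cells, did not pass.

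Of 17 Notch pathway genes 5 rose (29.4%) and 3 fell (17.6%), where 15.9% and 19% of all genes did. Set against vehicle 5 rose and 6 fell (16.4% and 19.8% of all genes). With the arrays quantile-normalised again 5 fell. JAG1, a Notch ligand, read 11.06, 11.03 and 11.24 with IKKα shRNA, against 9.76, 9.76 and 9.90 with control shRNA, a difference of 1.30 (SE 0.09, adjusted p = 3.13e-09). HES6, a relative of the HES repressors, fell by 1.56, while HES4 rose by 0.75. Of 19 TGF-β and BMP genes 8 rose (42.1%) and 5 fell (26.3%), but with only the 6 shRNA arrays fitted 5 rose. Besides TGFBI and ID2, given above, BAMBI, a decoy receptor, fell by 0.68. ID1, a paralog of ID2, had a difference of 0.14 and did not pass (adjusted p = 0.166).

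Of 15 targets of the YAP and TEAD factors, which respond to cell contact and tension, 7 rose (46.7%) and 4 fell (26.7%). Over all genes the shares were 15.9% and 19%. The matricellular proteins CCN1 and CCN2, both textbook targets, went opposite ways. CCN1 read 7.43, 7.53 and 7.62 with IKKα shRNA, against 6.14, 6.27 and 6.33 with control shRNA, a difference of 1.28 (SE 0.10, adjusted p = 1.23e-08). CCN2 read 8.10, 7.98 and 8.24 with IKKα shRNA, against 9.24, 9.13 and 9.42 with control shRNA, a difference of -1.16 (SE 0.16, adjusted p = 1.26e-05). NT5E, a surface enzyme that makes adenosine, fell by 1.23.

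Of the 20 largest falls, LGALS2 and ANXA13 were on the enterocyte list and REG4 on the goblet cell list. LGALS2, an intestinal galectin, read 3.89, 3.84 and 3.91 with IKKα shRNA, against 7.84, 7.99 and 7.86 with control shRNA and 5.13, 4.96 and 4.98 with vehicle. The difference was -4.02 (SE 0.07, adjusted p = 9.43e-17) from control shRNA and -1.14 from vehicle. ANXA13, an annexin of the intestinal brush border, fell by 3.52 below control shRNA and by 1.18 below vehicle. For both genes the control shRNA arrays were above vehicle, by 2.88 for LGALS2 and 2.34 for ANXA13, and the 2 differences share the IKKα shRNA arrays.

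For most other large falls the values against the 2 references lay closer together. PHGR1, a small protein of the gut epithelium, fell by 3.36 below control shRNA and by 2.53 below vehicle. CAMK2N1, an inhibitor of the kinase CaMKII, read 7.10, 7.04 and 7.19 with IKKα shRNA, against 10.40, 10.44 and 10.43 with control shRNA and 9.58, 9.57 and 9.51 with vehicle. No array of the knockdown came near either reference, and the difference was -3.32 (SE 0.05, adjusted p = 9.43e-17). The GABA receptor subunit GABRP (-3.23), the tubulin-binding protein TPPP3 (-2.97), KCTD12 (-2.95) and the gap junction protein GJB1 (-2.80) fell as well. So did CLRN3 (-2.71) and HSD17B2 (-2.50), which inactivates estradiol and testosterone.

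**Figure D3:**
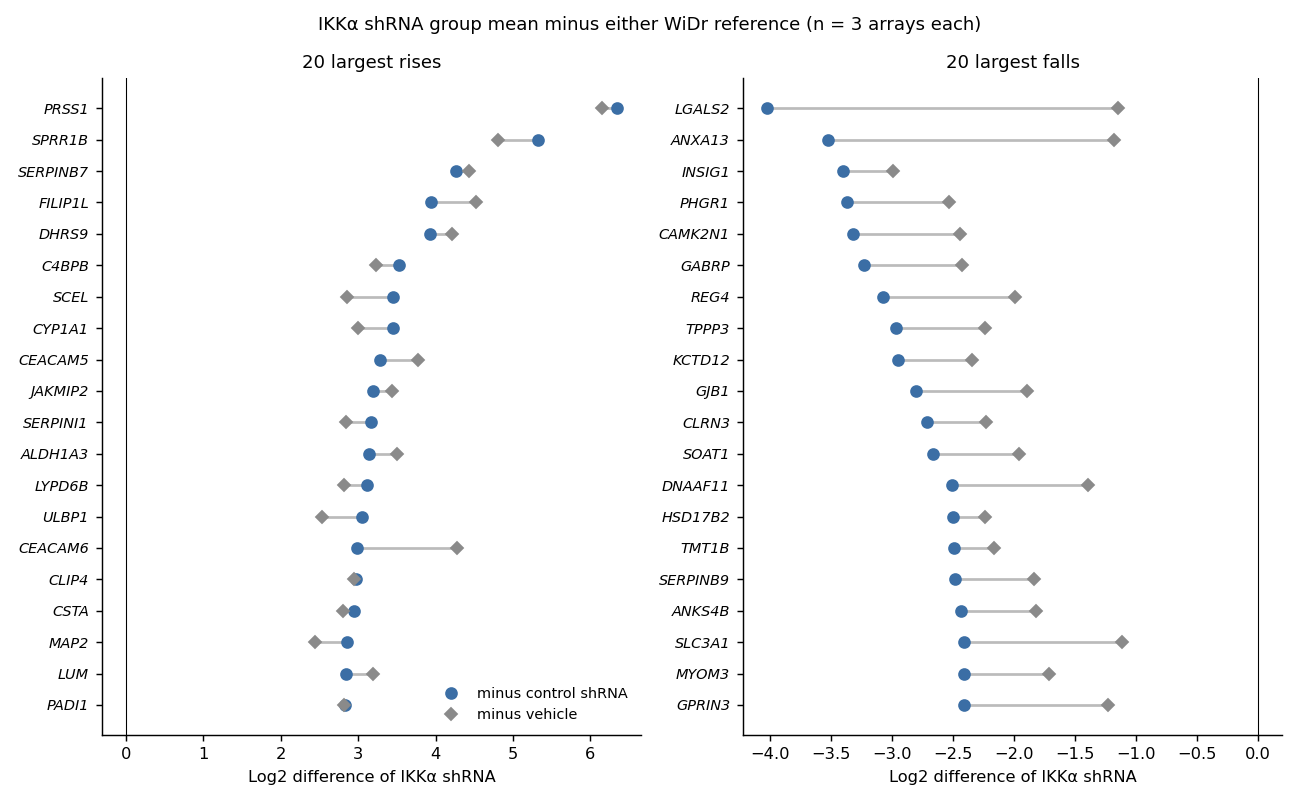
Log2 difference of the IKKα shRNA mean (horizontal axis, 3 arrays a group) from control shRNA (blue circles) and from vehicle (gray diamonds) for the 20 largest rises, left, and the 20 largest falls, right. PRSS1 lies at 6.34 and 6.15, while LGALS2 lies at -4.02 and -1.14. The paired values share the IKKα shRNA arrays.

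By list, 8 of 27 enterocyte genes fell (29.6%) and 3 rose (11.1%) against control shRNA, where 19% and 15.9% of all genes did. Their median was -0.09, and 7 fell and 1 rose against vehicle. The fatty acid carrier FABP1 (-2.05), the brush border galectin LGALS4 (-1.71) and villin, the VIL1 product that bundles the actin of microvilli (-1.16), fell. LGALS4 read 10.97, 10.88 and 11.06 with IKKα shRNA, against 12.72, 12.67 and 12.64 with control shRNA and 12.40, 12.49 and 12.51 with vehicle. ANKS4B, a brush border scaffold protein, fell by 2.43, and SLC3A1, part of a cystine transporter, by 2.41, with 5 probe sets of SLC3A1 between -2.41 and 0.21. HNF4G, a transcription factor of enterocytes singled out after its value was seen, fell by 2.35, although another of its probe sets gave -0.05. CDX2, which specifies intestinal identity, had a difference of -0.27 and did not pass (adjusted p = 0.0568), although it passed when only the 6 shRNA arrays were fitted (adjusted p = 0.0108).

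Genes of goblet cells, which make mucus, fell in 11 of 17 cases and rose in 2, with a median of -0.48 from control shRNA and -0.22 from vehicle. REG4, a secreted lectin, read 6.72, 6.55 and 6.50 with IKKα shRNA, against 9.67, 9.72 and 9.61 with control shRNA and 8.59, 8.47 and 8.68 with vehicle, a difference of -3.07 (SE 0.07, adjusted p = 2.71e-15). TFF3, a mucus-associated trefoil peptide, fell by 1.74.

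Ion transport genes and genes on the tight junction list fell more often than they rose. Of 18 ion channels and transporters of the colon 9 fell and none rose in limma (1 was higher at an unadjusted p under 0.05), and those that fell included the chloride channel ANO1 (-1.56), the bicarbonate transporter SLC4A4 (-1.54) and the water and glycerol channel AQP3 (-1.49). Of 15 tight junction genes 8 fell and 3 rose, against 6 that fell and 1 that rose when set against vehicle. CLDN3 (-1.42) and CLDN12 (-1.26) fell, whereas CLDN1 rose by 1.37, reading 9.76 to 10.02 with IKKα shRNA, against 8.47 to 8.69 with control shRNA. All 3 are claudins, the strand proteins of tight junctions, and of all 22 claudins measured 4 rose and 5 fell. Of 12 genes of adherens junctions and desmosomes 1 rose and 1 fell (8.33% each, against 15.9% and 19% of all genes).

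Cholesterol synthesis genes fell almost throughout. Of 22 genes of sterol synthesis and its control 18 fell and 1 rose, with a median of -0.74 from control shRNA and -0.46 from vehicle. INSIG1, which retains the sterol sensor SCAP in the endoplasmic reticulum and is itself a target of SREBP factors, read 7.60, 7.82 and 7.89 with IKKα shRNA, against 11.18, 11.12 and 11.19 with control shRNA and 10.93, 10.56 and 10.78 with vehicle. The groups were far apart, with a difference of -3.40 (SE 0.10, adjusted p = 5.91e-14). MSMO1, a sterol demethylase (-1.90), and HMGCS1, the synthase at the entry of the pathway (-1.36), fell. The 4 probe sets of MSMO1 ranged from -1.90 to 0.00. SREBF2, which encodes a sterol-regulated transcription factor and was picked after its value was seen, had a difference of -0.09 and did not pass. Against vehicle 18 of the 22 fell and 2 rose. The sterol response element, searched as TCACNCCAC on both strands of the RefSeq promoters, was present in 1 of 20 promoters of the list (5%), that of SREBF2, against 1.18% of all. Among genes changed 2-fold or more, 0.877% of those that rose and 0.938% of those that fell held it.

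Genes of cholesterol storage, export and fatty acids leaned the same way in part. SOAT1, which esterifies cholesterol for storage, read 4.67, 3.72 and 4.22 with IKKα shRNA, against 6.78, 6.75 and 7.07 with control shRNA, a difference of -2.66 (SE 0.18, adjusted p = 3.12e-09). ABCG1, a cholesterol exporter, fell by 1.82, and NR1H3, the oxysterol receptor LXRα, by 0.79. Of 19 fatty acid synthesis genes 8 fell and 2 rose, with the desaturases SCD (-1.29) and FADS1 (-1.07) among those that fell. Against vehicle 3 of these 19 fell and 7 rose. Of 13 fatty acid oxidation genes 7 fell and 1 rose, and CPT1A, which admits fatty acids to mitochondria, fell by 0.87 below control shRNA and by 0.27 below vehicle.

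Genes of the ATF4 response to amino acid shortage rose together. Of 23 measured, 18 rose and none fell in limma, nor at an unadjusted p under 0.05 (0 genes), with a median of 1.28 from control shRNA and 0.94 from vehicle. ASNS, asparagine synthetase, read 13.04, 13.06 and 13.10 with IKKα shRNA, against 10.83, 10.84 and 10.95 with control shRNA and 11.33, 12.10 and 11.91 with vehicle. The vehicle arrays lay between the shRNA groups, and the difference was 2.19 (SE 0.13, adjusted p = 4.11e-10) from control shRNA and 1.28 from vehicle. DDIT4, an inhibitor of mTORC1, rose by 2.71 and by 1.75 over vehicle, and VLDLR, a lipoprotein receptor, by 2.30. SESN2, a leucine sensor, rose by 1.51, and CHAC1, which degrades glutathione and was picked after its value was seen, by 1.68.

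Enzymes tied to the same response also rose more often than they fell. Whether ATF4 had a part in these changes was not tested. Of 19 aminoacyl-tRNA synthetases, which charge tRNAs with amino acids, 13 rose and 2 fell, with a median of 0.40. MARS1 read 10.39, 10.58 and 10.41 with IKKα shRNA, against 9.44, 9.48 and 9.56 with control shRNA, a difference of 0.97 (SE 0.08, adjusted p = 3.08e-08), and GARS1 rose by 0.92 and AARS1 by 0.90. Of 13 enzymes of serine, glycine and one-carbon metabolism 7 rose and 3 fell. Those that rose included PSAT1 (1.24) and PHGDH (1.07), which make serine, and MTHFD2 (1.13), a mitochondrial folate enzyme.

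The C/EBP-ATF response element, bound by ATF4 with C/EBP proteins, was searched as TGATGNAA on both strands of the same RefSeq promoters. It was present in 6 of 20 promoters of the ATF4 list (30%) and 6 of 16 of the tRNA synthetases (37.5%), against 2.57% of all 14425. Among genes that changed 2-fold or more it was present in 6.58% of those that rose and 1.88% of those that fell. Promoters of ASNS (chr7:97872359-97872658, minus strand), CHAC1 (chr15:40953221-40953520, plus strand) and MARS1 (chr12:57487818-57488117, plus strand) are shown because all 3 genes rose, with the match in capitals. The match begins at position -68 in ASNS, -209 in CHAC1 and -4 in MARS1. FGF21, a hormone gene of the same list, holds a match as well but did not pass (0.15, adjusted p = 0.278). A match is a run of letters and not evidence of binding.
ASNS: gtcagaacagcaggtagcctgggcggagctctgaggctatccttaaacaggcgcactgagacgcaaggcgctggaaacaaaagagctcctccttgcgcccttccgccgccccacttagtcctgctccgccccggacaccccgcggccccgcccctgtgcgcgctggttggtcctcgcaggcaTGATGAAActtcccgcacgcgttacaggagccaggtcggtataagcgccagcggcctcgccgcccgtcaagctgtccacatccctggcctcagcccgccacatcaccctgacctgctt
CHAC1: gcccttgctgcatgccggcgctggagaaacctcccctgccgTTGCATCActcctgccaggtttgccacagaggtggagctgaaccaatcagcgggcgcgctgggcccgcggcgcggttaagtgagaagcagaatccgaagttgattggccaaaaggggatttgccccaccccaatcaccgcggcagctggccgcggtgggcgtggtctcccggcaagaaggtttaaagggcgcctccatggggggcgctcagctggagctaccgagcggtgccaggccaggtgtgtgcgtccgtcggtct
MARS1: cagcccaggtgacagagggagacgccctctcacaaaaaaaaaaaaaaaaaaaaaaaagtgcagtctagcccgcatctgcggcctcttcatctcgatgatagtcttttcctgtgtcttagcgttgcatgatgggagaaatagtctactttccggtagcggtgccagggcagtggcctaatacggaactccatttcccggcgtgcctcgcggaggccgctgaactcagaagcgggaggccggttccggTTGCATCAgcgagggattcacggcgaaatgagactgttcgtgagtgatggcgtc

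Interferon response genes fell against control shRNA but not against vehicle. Of 32 measured, 20 fell and 1 rose against control shRNA, with a median of -0.51, while against vehicle 17 rose and 2 fell, with a median of 0.35. The control shRNA arrays were themselves higher than vehicle for 27 of the 32, with a median of 1.11, and none was lower in limma, with 1 at an unadjusted p under 0.05. The 3 comparisons share arrays.

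IFI44, a cytoplasmic interferon-induced protein, read 6.67, 6.54 and 6.63 with IKKα shRNA, against 8.98, 9.15 and 8.90 with control shRNA and 7.19, 7.24 and 7.37 with vehicle. It was lowest on the IKKα shRNA arrays, with a difference of -2.40 (SE 0.08, adjusted p = 3.36e-13) from control shRNA and -0.65 from vehicle. IFITM1, which restricts virus entry, read 7.78, 7.91 and 7.53 with IKKα shRNA, against 9.74, 9.94 and 9.88 with control shRNA and 6.72, 6.86 and 6.73 with vehicle. Here the IKKα shRNA arrays lay between the references, with a difference of -2.11 from control shRNA and 0.97 from vehicle. For MX1, an antiviral GTPase, the differences were -1.61 from control shRNA and 0.69 from vehicle. ISG15, a ubiquitin-like protein, had a difference of -0.07 from control shRNA and did not pass (adjusted p = 0.423).

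The interferon-stimulated response element was searched on both strands as GAAA, any 2 bases and GAAA, and was present in 19 of 26 promoters of the list (73.1%), against 3.08% of all. Among genes that changed 2-fold or more from control shRNA it was present in 2.19% of those that rose and 4.69% of those that fell. IFI44 (chr1:78649539-78649838, plus strand) and IFITM1 (chr11:313790-314089, plus strand) are shown because their levels against vehicle went opposite ways. IFI44 has 1 match, at -18, and IFITM1 has 2, at -40 and -6, in capitals.
IFI44: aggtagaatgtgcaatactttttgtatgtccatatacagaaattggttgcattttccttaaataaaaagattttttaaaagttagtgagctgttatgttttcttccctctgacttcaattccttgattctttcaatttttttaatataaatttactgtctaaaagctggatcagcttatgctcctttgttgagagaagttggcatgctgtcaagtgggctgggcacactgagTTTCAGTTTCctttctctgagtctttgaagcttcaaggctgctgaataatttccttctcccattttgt
IFITM1: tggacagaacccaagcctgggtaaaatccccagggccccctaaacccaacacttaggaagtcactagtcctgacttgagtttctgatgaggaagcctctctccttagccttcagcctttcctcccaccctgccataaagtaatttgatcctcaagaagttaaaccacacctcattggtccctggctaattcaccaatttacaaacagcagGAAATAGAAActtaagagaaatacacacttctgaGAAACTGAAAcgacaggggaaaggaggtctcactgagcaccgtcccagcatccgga

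**Figure D4:**
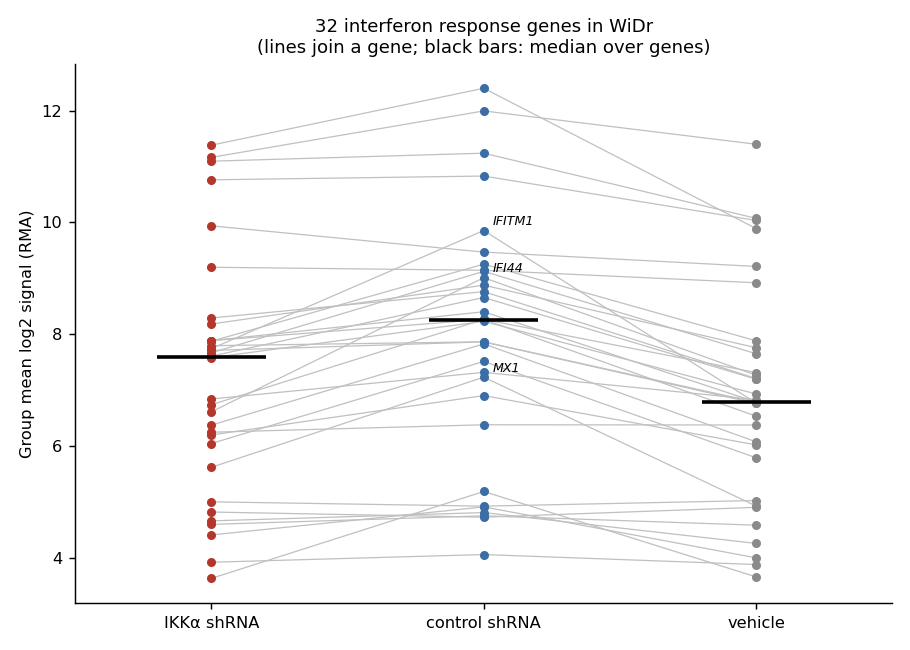
Group mean log2 signal (vertical axis, 3 arrays a group) of 32 interferon response genes with IKKα shRNA (red), control shRNA (blue) and vehicle (gray). Lines join the values of a gene and black bars give the median over genes. With IKKα shRNA, IFITM1 and MX1 lie between their control shRNA and vehicle values, and 20 of the 32 genes passed as lower than with control shRNA.

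Of 18 genes of antigen presentation by MHC class I, which interferon also induces, 6 fell and 3 rose against control shRNA, while against vehicle 10 rose and none fell in limma, with 2 lower at an unadjusted p under 0.05. TAP1, the peptide transporter (-1.47), and PSMB9, an immunoproteasome subunit (-1.14), fell. Against vehicle TAP1 (-0.15, adjusted p = 0.0882) and PSMB9 (-0.13, adjusted p = 0.429) did not pass. B2M, the light chain, had a difference of 0.09 from control shRNA and did not pass, but it passed as higher than vehicle (0.16, adjusted p = 0.0119).

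Genes of cell division were lower. Of 29 DNA replication genes 19 fell and 1 rose, with a median of -0.32, and of 24 mitosis genes 15 fell and none rose in limma (0 at an unadjusted p under 0.05), with a median of -0.28. TYMS, which makes thymidylate, read 11.48, 11.29 and 11.43 with IKKα shRNA, against 12.32, 12.26 and 12.33 with control shRNA and 12.23, 12.08 and 12.18 with vehicle, a difference of -0.91 (SE 0.07, adjusted p = 2.03e-08). The replicative helicase subunit MCM6 (-0.85), the kinetochore protein NUF2 (-0.80) and cyclin A2, encoded by CCNA2 (-0.79), fell. CDK1, the mitotic kinase, had a difference of 0.09 and did not pass (adjusted p = 0.359). Against vehicle 17 of the 29 and 17 of the 24 fell.

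CDKN2B, which encodes a CDK4 and CDK6 inhibitor induced by TGF-β, rose. It read 9.96, 9.94 and 10.24 with IKKα shRNA, against 7.38, 7.09 and 7.24 with control shRNA and 7.84, 7.85 and 7.62 with vehicle, a difference of 2.81 (SE 0.10, adjusted p = 3.36e-13). CDKN1A, the p53-induced CDK inhibitor, fell by 0.61. Of 16 p53 targets 9 fell (56.2%) and 5 rose (31.2%), against 19% and 15.9% of all genes. FAS, a death receptor, fell by 1.09, and GDF15 (1.71) and SESN2, named above, were among those that rose.

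Cell death and stress genes changed without a common direction. Of 17 BCL2 family genes 5 rose and 5 fell (29.4% each, against 15.9% and 19% of all genes). BMF, a BH3-only protein that promotes apoptosis, averaged 7.25 ± 0.203 with IKKα shRNA, against 6.04 ± 0.033 with control shRNA (SD, n = 3 each), a difference of 1.21 (SE 0.10, adjusted p = 2.1e-08). PMAIP1, which encodes the BH3-only protein NOXA, rose by 0.68. BAK1, a pore-forming member, fell by 0.54 below control shRNA but did not pass against vehicle (-0.06, adjusted p = 0.64). BCL2L1, which encodes the survival protein BCL-XL, had a difference of 0.08 from control shRNA that did not pass and was 0.36 above vehicle (adjusted p = 0.00042).

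Of 13 cytosolic heat shock genes 4 rose and 4 fell (30.8% each, against 15.9% and 19% of all genes). BAG3, a chaperone partner of HSP70, fell by 0.98 (SE 0.06, adjusted p = 4.69e-10), and HSPH1, a nucleotide exchange factor for HSP70, rose by 0.42. For HSPD1, a mitochondrial chaperonin, the brightest probe set fell by 0.52, but its 7 probe sets ranged from -0.75 to 0.45. Of 19 genes of the unfolded protein response 5 rose (26.3%) and 2 fell (10.5%), with HERPUD1 (0.79) and the chaperone DNAJB9 (0.91) among those that rose.

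Genes of lysosomes and autophagy rose in 12 of 22 cases (54.5%) and fell in 6 (27.3%), where 15.9% and 19% of all genes did. The median was 0.21 from control shRNA and 0.22 from vehicle, and none changed 2-fold. Against vehicle 12 rose and 3 fell (16.4% and 19.8% of all genes). NEU1, a sialidase, rose by 0.56 (SE 0.06, adjusted p = 5.08e-07), whereas the glucosidase GAA (-0.80) and the protease CTSB (-0.65) fell. Of 25 glycolysis and hypoxia genes 6 rose (24%) and 9 fell (36%), or 5 fell with the arrays centred on their medians. Against vehicle the balance turned, with 8 that rose and 2 that fell. SLC2A1, the glucose transporter GLUT1, read 12.17, 12.25 and 12.42 with IKKα shRNA, against 11.28, 11.43 and 11.37 with control shRNA and 11.19, 11.15 and 11.13 with vehicle, a difference of 0.92 (SE 0.07, adjusted p = 1.8e-08). ALDOC, an aldolase, fell by 0.65, and LDHA, which makes lactate, had a difference of -0.09 that did not pass (adjusted p = 0.18). PKM, pyruvate kinase, rose by 0.83, with control shRNA arrays that spread from 9.09 to 10.34.

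Among 327 solute carriers 54 rose (16.5%) and 63 fell (19.3%), shares near those of all genes. SLC26A9, an anion transporter, read 7.57, 7.57 and 7.38 with IKKα shRNA, against 4.96, 5.11 and 4.82 with control shRNA, a difference of 2.54 (SE 0.14, adjusted p = 1.34e-10). SLC38A11, of a family of amino acid transporters, fell by 2.35, and SLCO1B3, which imports organic anions, rose by 2.12. The NADPH oxidase NOX1 of the colon fell by 0.99 below control shRNA, but its difference from vehicle was -0.13 and did not pass (adjusted p = 0.17). Its organiser NOXO1 rose by 0.54 and its partner CYBA fell by 0.54. Members of other families also split: ANXA1, an annexin, rose by 1.31, the galectin LGALS1 by 1.43 and the neuronal tubulin TUBB3 by 1.58. The membrane mucin MUC12 fell by 1.28, while MUC13 rose by 0.31 over control shRNA and by 1.75 over vehicle.

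**Figure D5:**
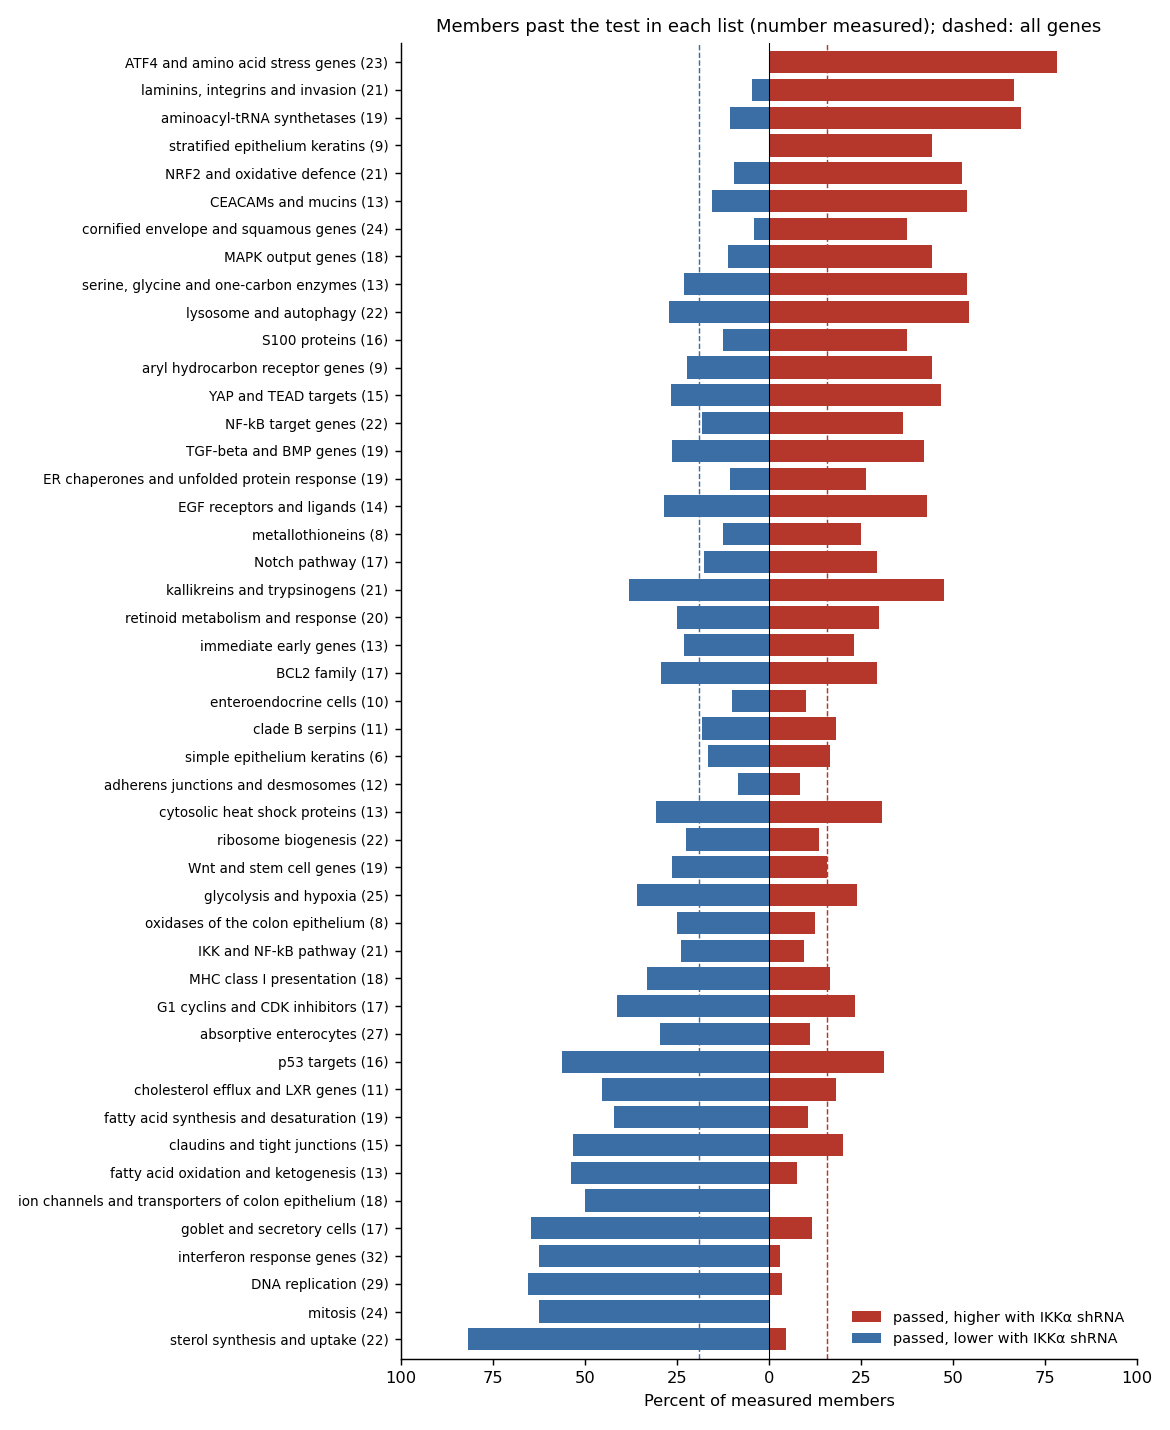
Percent of measured members of each gene list that passed as higher (red, right) or lower (blue, left) with IKKα shRNA than with control shRNA, with the number measured in brackets and dashed lines at the shares over all genes (15.9% higher and 19% lower). The ATF4 list (23 genes) stands at the top with 18 higher and the sterol list (22 genes) at the bottom with 18 lower.

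Large families defined by symbol are given by their counts, beside 15.9% of all genes that rose and 19% that fell. Of 486 zinc finger ZNF genes, many of them DNA-binding repressors, 111 rose (22.8%) and 63 fell (13%). Of 71 cytosolic ribosomal protein genes 16 fell (22.5%), near the share of all genes, or 10 with the arrays centred on their medians. None of them rose in limma (0 at an unadjusted p under 0.05), and their median was -0.04. Of 73 mitochondrial ribosomal protein genes 25 fell (34.2%) and 6 rose (8.22%). Of 44 proteasome subunits 16 fell (36.4%) and 3 rose (6.82%). Falls were also more common among bright genes, at 31.8% of the 4533 brightest, where 21.3% rose. Whether the signal level of these families had a part in their shares was not tested. Olfactory receptors, sensory receptors of the nose with low signals here, rose in 11 of 333 cases (3.3%) and fell in 3 (0.901%). Against vehicle 1 rose and 28 fell, where 16.4% and 19.8% of all genes did.

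Probe sets of a gene did not always give the same value. Of the 162 genes named above that passed, 113 had more than 1 probe set. For 44 of these at least 1 other probe set showed less than 25% of the difference or the opposite sign, and for 18 it had the opposite sign. Examples without a range above are ULBP1 (-0.04 to 3.05), ALDH1A3 (0.11 to 3.14), CYP1B1 (0.12 to 1.80), AKR1C2 (0.16 to 2.22), PADI1 (0.37 to 2.83), IL1R1 (0.06 to 1.64) and SLC26A9 (0.16 to 2.54). The same held for SLCO1B3 (0.23 to 2.12), BMF (0.04 to 1.21), CDKN2B (0.66 to 2.81), VIL1 (-1.16 to -0.09), SLC4A4 (-1.54 to 0.32), CLDN12 (-1.26 to -0.08), PSMB9 (-1.14 to -0.04) and IFI44 (-2.40 to -0.01). Which transcripts these probe sets read was not analysed here.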

How the data were processed

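Total RNA was labelled and hybridised to Affymetrix arrays, per the labels' protocols. The deposited log2 values are signals that the authors had normalised, per the submitters' processing notes, which name RMA, limma and R 3.0.2; RMA subtracts background, forces arrays to a common distribution and compresses changes at low signal. Settings beyond these names are not given in the sources used here. From 49395 probe sets, 44994 had 1 gene symbol, 1832 several and 2569 none. For each of 18132 genes 1 probe set was kept, the brightest on average across the 18 arrays. Groups came from the titles. limma 3.58.1 in R 4.3.3 was fitted to all 6 groups of 3 arrays, which share 1 estimate of the spread (12 residual degrees of freedom), with two-sided tests and Benjamini-Hochberg adjustment over all genes. The number of arrays limits the precision. In simulated data over 18132 genes, of which 200 were changed, 91% of 67 genes changed 1.5-fold were recovered, and 12 calls were false. In the measured comparison 34.9% of all genes passed, so the simulated rate cannot be carried over to it.

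Named genes are CHUK, the 20 largest rises and 20 largest falls with groups that do not overlap (non-coding and provisional symbols passed over), and, for each gene list or symbol family, up to 3 passing members with the largest differences and, for lists, up to 2 bright members that did not pass. The members, lists and rules were chosen with earlier results of these data known. Lists are described by counts and medians, with no set test. Promoters are from RefSeq (GRCh38.p14), matched by symbol for 14425 genes. Alternatives covered the reference group, probe set choice, scaling, the variance model and each array left out.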

Additional observations from a re-analysis of the deposited data

How the results depend on the processing

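In all, 19 alternatives to the reported fit were tried. The counts of 2880 higher and 3443 lower genes stayed within 1.5 times under 17 of them, and CHUK kept its direction and call wherever it was measured. With the arrays centred on their medians, however, 3495 genes were higher and 3044 lower. Which direction held more genes thus depended on the scaling. Asking for a 2-fold change left 276 higher and 408 lower genes. Without probe sets of the _x_at, _s_at and _a_at classes only 8356 genes could be tested, of which 931 were higher and 1010 lower; CHUK was not among them. Leaving out each of the 6 shRNA arrays in turn gave 2447 to 2743 higher genes, 3074 to 3233 lower genes and a CHUK difference of -2.21 to -1.97. The replicate block gave 2837 higher and 3376 lower genes and changed no call of a named gene. Same-numbered arrays correlated by 0.04 to 0.09 in their deviations, and differently numbered arrays by -0.13 to 0.08. Whether equal numbers mark paired arrays cannot be told from so few values. Against vehicle, IFITM1 (0.97), MX1 (0.69) and the interferon median (0.35) turned to higher. Without the probe set classes above, SERPINB9 (0.032), FILIP1L (-0.065), MSMO1 (0.0026), HSPD1 (0.45), the median of 3 cholesterol efflux genes (0.16) and that of 5 p53 targets (0.038) turned sign; other probe sets stood for these genes or fewer were measured, and VIL1, SLC3A1, IFI44 and PSMB9 no longer passed. Of 179 named genes besides CHUK, leaving out single arrays ended 1 call, that of CYLD (-0.39 without the third IKKα shRNA array). Signals near background limit what can be seen for the 4533 dimmest genes.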
